A study of Mus musculus with 2 samples.

Results

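The clustered protocadherins are cell adhesion proteins that sit on the surface of neurons and other cells and are encoded by 3 neighbouring gene arrays, Pcdha, Pcdhb and Pcdhg. In the Pcdha and Pcdhg arrays each gene starts with its own large variable exon, which has its own promoter and codes for the outside, membrane and first inner part of the protein, and is spliced to constant exons shared by the whole array. Pcdhb genes use no shared constant exons. A neuron transcribes a few of the alternate isoforms, in combinations that differ between cells, whereas the so-called C-type isoforms of the Pcdha and Pcdhg arrays are used more widely. The architectural protein CTCF and cohesin are known to bind promoters of these genes and to bring them to distant enhancers. Members were the protein-coding genes of the GENCODE M21 annotation (GRCm38, mm10) with symbols of these arrays. The rule gave 57 of 21938 protein-coding genes, namely 14 Pcdha, 22 Pcdhb and 21 Pcdhg genes, all on the plus strand of chromosome 18. The 5 C-type genes are Pcdhac1, Pcdhac2, Pcdhgc3, Pcdhgc4 and Pcdhgc5, and the other 52 are called alternate isoforms here. A pair of Pcdha models carries the symbol Pcdha11 (ENSMUSG00000007440.10, model 1, and ENSMUSG00000102206.5, model 2), and both were kept.

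DNase-seq measures open chromatin by sequencing the ends of fragments cut by DNase I. The tissue was hippocampus of male B6CASTF1/J mice aged 14 days, which are first-generation offspring of C57BL/6 and CAST/EiJ parents, and the labels call it a layer of the hippocampus without naming the layer. There was 1 group of 2 biological replicates, so no condition was compared. Each label speaks of 3 males, and both replicates carry the same donor identifier, so the spread between them may be partly technical. The authors' peak lists held 115072 peaks in replicate 1 and 95711 in replicate 2, and each peak carries a value of theirs whose unit and scaling are not stated, with medians of 0.594 and 0.734. The sequencing depth is unknown, so no limit of detection can be given for a promoter without a listed peak. Promoters of 13 of 14 neuronal markers had a peak in both replicates, with Slc32a1 of inhibitory neurons lacking one, beside 5 of 14 glial and endothelial markers and 1 of 5 markers of other organs. Over all protein-coding genes the share was 64.3%. Counted singly, 9 of the 14 glial and endothelial markers had a peak in replicate 1 and 7 in replicate 2. The lists were not matched for promoter sequence content. None of the 3 endothelial markers had a peak in both replicates. In this mixed tissue, fewer cells with an open site and less opening per cell cannot be told apart, nor can the C57BL/6 and CAST/EiJ copies.

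The members lay between chr18:36930184-37841873, a stretch of 911.69 kb, and were examined with 200 kb on either side (chr18:36730184-38041873). A variable promoter was taken as 1000 bp either side of any start site at or before the end of the variable exon, and its value in a replicate was that of the highest overlapping peak. Variable exons were 2316 to 2562 bp long. In the whole span replicate 1 had 72 peaks, of which 22 lay at member promoters, 13 at promoters of other genes, 1 in a constant exon and 36 elsewhere. Replicate 2 had 78 peaks, with 21, 14, 2 and 41 in these places.

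**Figure D1:**
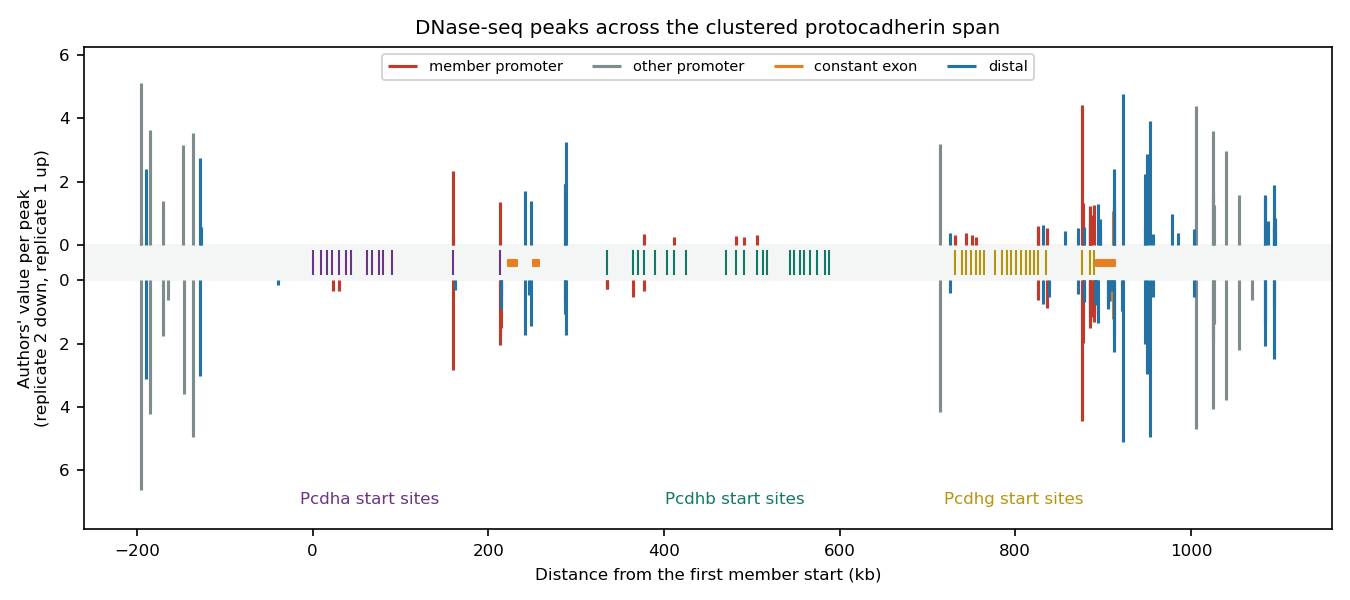
Peaks of the span by distance from the first member start (kb, horizontal), with the authors' value of replicate 1 upward and of replicate 2 downward; each line is a peak, coloured by place, the short ticks in the middle band are member start sites, and the small orange squares mark the starts of constant exons. Peaks above 1 sit at the C-type starts, around the constant exons and outside the arrays, and the long rows of Pcdha, Pcdhb and Pcdhg start sites carry few and low ones.

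Few clustered protocadherin promoters were listed as open. A peak in both replicates was found at 8 of 57 (14.0%), against 64.3% of all protein-coding genes. A further 8 had a peak in replicate 1 only, 4 in replicate 2 only and 37 in neither. Counted singly, replicate 1 listed a peak at 16 members and replicate 2 at 12, against 66.4% and 65.8% of all protein-coding genes. By array, 2 of 14 Pcdha, 1 of 22 Pcdhb and 5 of 21 Pcdhg promoters had a peak in both replicates. By type, all 5 C-type promoters did, and 3 of the 52 alternate ones did. In the authors' shorter list, all 5 C-type promoters and no alternate promoter had a peak in both replicates, where 59.3% of all protein-coding genes had one.

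**Figure D2:**
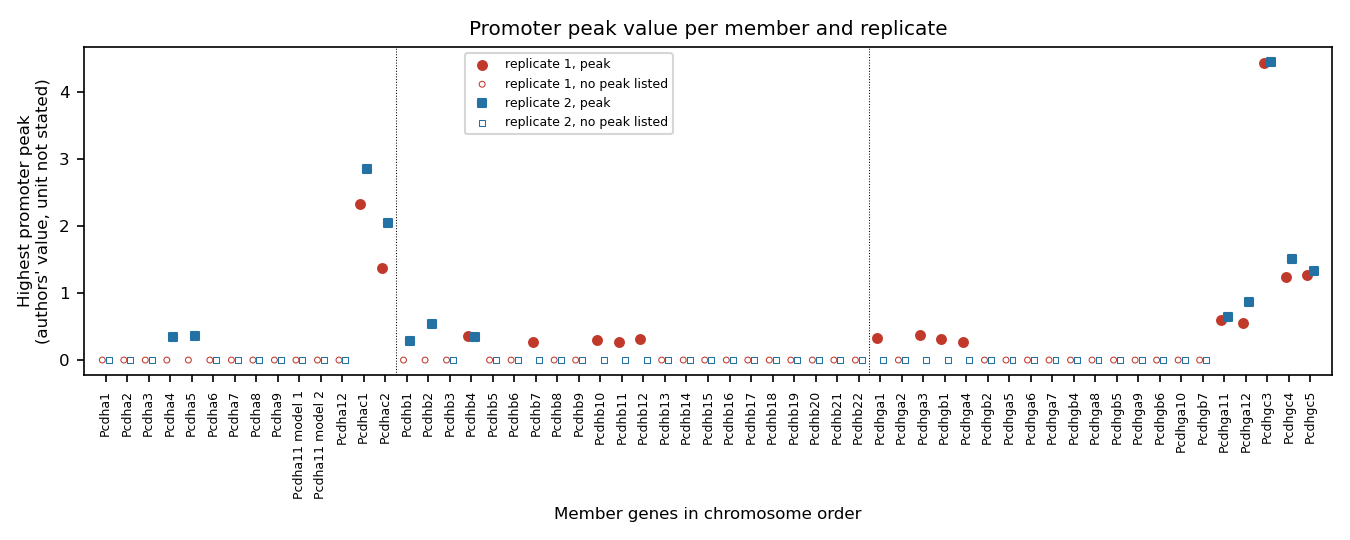
Value of the highest promoter peak (vertical, authors' value, unit not stated) for each member in chromosome order, with circles for replicate 1 and squares for replicate 2; open symbols at 0 mark that no peak is listed, and dotted lines separate the Pcdha, Pcdhb and Pcdhg arrays. The 5 C-type genes lie between 1.23 and 4.44, and no alternate isoform exceeds 0.864.

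The C-type promoters stood at the end of their arrays. Pcdhgc3 (ENSMUSG00000102918.1), the first of the C-type genes of Pcdhg, had the highest value of any member, 4.42 in replicate 1 and 4.44 in replicate 2 (4.43 ± 0.0167, SD, n = 2). Its peaks lay over the start site, at chr18:37806201-37806480 and chr18:37806201-37806560, and ranked above 97.9% and 95.5% of the peaks of their lists. Pcdhac1 (ENSMUSG00000103255.1), the C-type gene nearer to the alternate Pcdha isoforms, had 2.33 and 2.85 (2.59 ± 0.367, SD, n = 2) at chr18:37089861-37090080 and chr18:37089901-37090120. For both genes the peaks of the replicates overlapped and covered the start.

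Pcdhac2 (ENSMUSG00000102697.1), the last variable exon before the Pcdha constant exons, had 1.36 and 2.05 (1.71 ± 0.482, SD, n = 2). Its peaks reached into the variable exon, at chr18:37143441-37144560 in replicate 1, which covers the start, and at chr18:37143601-37144220 in replicate 2, which begins after it. Pcdhgc4 (ENSMUSG00000023036.14), known from work on neuron survival, had 1.23 and 1.51 (1.37 ± 0.196, SD, n = 2), also partly inside the variable exon, at chr18:37814901-37816300 and chr18:37815261-37815720. Pcdhgc5 (ENSMUSG00000102543.5), the last variable exon of Pcdhg, had 1.27 and 1.33 (1.30 ± 0.0446, SD, n = 2), with the peaks just before the start at chr18:37819181-37819500 and chr18:37819201-37819460. Pcdhgc3 was higher than the other C-type genes in both replicates, and Pcdhac1 was higher than the remaining 3 in both. Pcdhac2 was above Pcdhgc4 and Pcdhgc5 in both replicates, by less in replicate 1 than in replicate 2. Its mean differed from theirs by less than its own SD, but that SD also holds any shift between the libraries. Pcdhgc4 and Pcdhgc5 changed order between replicates.

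Next to other promoters the C-type values were ordinary or low. The mean of Pcdhgc3 was at or above 76.1% of the 14116 protein-coding promoters with a peak in both replicates, that of Pcdhac1 at or above 44.9%, Pcdhac2 27.9%, Pcdhgc4 21.2% and Pcdhgc5 19.6%. The medians of promoter values over the genes with a peak were 2.45 in replicate 1 and 3.11 in replicate 2. Replicate 2 was higher at the median promoter by a ratio of 1.25, and at the 8 members with both peaks by a median ratio of 1.15. The values were not rescaled, so each SD given here holds this shift too. At Pcdhgc3 the ratio was 1.01, and 8.11% of promoters had a lower one, so its small SD is no measure of precision. Over those 8 members, which share their libraries, Spearman's rho between replicates was 0.952, and over all such promoters 0.980, given as descriptions.

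Among the alternate isoforms, Pcdhga12 (ENSMUSG00000102428.1), the last alternate gene of Pcdhg, had the highest mean. It had 0.552 in replicate 1 and 0.864 in replicate 2 (0.708 ± 0.221, SD, n = 2), in peaks 410 and 380 bp after the start, at chr18:37765941-37766040 and chr18:37765861-37766060. Pcdhga11 (ENSMUSG00000102742.1), its nearest protein-coding member upstream, had 0.594 and 0.636 (0.615 ± 0.0296, SD, n = 2) over the start, at chr18:37755648-37755812 and chr18:37755658-37755739, and was the higher of this pair in replicate 1. The Pcdhga11 peaks also lay within 1000 bp of a start of Gm26672, a noncoding gene on the other strand, and DNase-seq carries no strand. Pcdhb4 (ENSMUSG00000045689.3) was the only Pcdhb gene with both peaks, at 0.361 and 0.342 (0.352 ± 0.0129, SD, n = 2), at chr18:37307314-37307520 and chr18:37307421-37307690. These 3 means were at or above 7.28%, 5.42% and 0.992% of promoters with both peaks, in the same order.

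The other 12 alternate promoters with a peak had it in 1 replicate only. In Pcdha, these were Pcdha4 at 0.342 and Pcdha5 at 0.359, both in replicate 2. In Pcdhb, replicate 1 listed Pcdhb7 at 0.262, Pcdhb10 at 0.304, Pcdhb11 at 0.269 and Pcdhb12 at 0.318, and replicate 2 listed Pcdhb1 at 0.285 and Pcdhb2 at 0.530. In Pcdhg, replicate 1 listed Pcdhga1 at 0.325, Pcdhga3 at 0.375, Pcdhgb1 at 0.318 and Pcdhga4 at 0.269, and replicate 2 listed none beyond the 5 shared ones. All values of alternate isoforms in either replicate lay between 0.262 and 0.864, and those of C-type genes between 1.23 and 4.44, so the ranges did not overlap. Of the 12, Pcdhb2 alone also stood in a shorter list, that of replicate 2. The peaks of Pcdha4 and Pcdhga1 also lay within 1000 bp of a start of the noncoding genes Gm38225 and Gm37118, respectively, on the other strand.

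No peak was listed in either replicate at Pcdha1, Pcdha2, Pcdha3, Pcdha6, Pcdha7, Pcdha8, Pcdha9, both Pcdha11 models and Pcdha12. The same was true of Pcdhb3, Pcdhb5, Pcdhb6, Pcdhb8, Pcdhb9 and Pcdhb13 to Pcdhb22, and of Pcdhga2, Pcdhgb2, Pcdhga5, Pcdhga6, Pcdhga7, Pcdhgb4, Pcdhga8, Pcdhgb5, Pcdhga9, Pcdhgb6, Pcdhga10 and Pcdhgb7. A weaker trace was sought in the authors' list of stretches whose cut rate passes a false discovery rate of 0.05. Of these 37 promoters, 34 had no such stretch in either replicate, and Pcdhb3 and Pcdhgb6 had 1 in replicate 2 and Pcdhb6 in replicate 1. Over all members, 10 of 57 (17.5%) had a listed stretch in both replicates, against 65% of all protein-coding genes.

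Most peaks counted at alternate isoforms had their centre close to the start site, in windows that were themselves set around start sites. Of the 18 highest peaks at alternate promoters over both replicates, 12 had their centre within 100 bp of the first annotated start, with a median of 44.5 bp after it and a range from -38 to 410 bp. The 10 C-type peaks ranged from -182 to 522 bp, and 4 had their centre within 100 bp. C-type peaks were also wider, at 220 to 1400 bp against 27 to 504 bp for alternate ones. Such distances were not counted over all protein-coding promoters. Across whole variable exons, a peak of both replicates was found in 3 of 57, those of Pcdhac2, Pcdhgc3 and Pcdhgc4, with 2 more in replicate 1 only and 7 more in replicate 2 only. The highest peaks in these 3 exons also lay in the promoter windows counted above. In replicate 2 that of Pcdhgc3 was its promoter peak, which ends at 37806560, just inside the exon that begins at 37806548. No share over the exons of all genes was counted.

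Footprints are short protected stretches inside open sites, called by the authors at a false discovery rate of 0.01, where a bound protein may shield DNA from the enzyme. A footprint in both replicates was present at 7 of 57 member promoters, against 62.7% of all protein-coding genes. Pcdhgc3 had 15 in replicate 1 and 11 in replicate 2, Pcdhgc4 14 and 11, Pcdhac2 13 and 13, Pcdhac1 7 and 6, and Pcdhgc5 6 and 8. Pcdhga12 had 5 and 4, Pcdhga11 5 and 1, and Pcdhb4 2 and 0. None of the 37 promoters without a peak had a footprint. Footprints at member promoters fell at the same place in the other replicate, with at least 50% of their length covered, in 28.8% of 73 cases for replicate 1 and 27.1% of 59 for replicate 2. Over all footprints these shares were 31.8% and 37.5%.

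Sequence content was then set beside openness, since promoters rich in CpG dinucleotides are open in most tissues. The ratio of observed to expected CpG had a median of 0.492 over the member windows, and of 0.641 in Pcdha, 0.334 in Pcdhb and 0.523 in Pcdhg, against 0.514 over all protein-coding genes. At a ratio of 0.6 and over, 3 of 15 members had a peak in both replicates (20%), against 96.1% of 8438 genes. From 0.3 to under 0.6, the count was 3 of 33 (9.09%), against 76.8% of 6899 genes. Under 0.3 it was 2 of 9 (22.2%), against 10.7% of 6601 genes. The lower share of members was thus seen in the upper 2 classes. The lowest class held only 9 members, and the 2 with both peaks were Pcdhgc5 and Pcdhb4. For alternate isoforms alone the counts were 1 of 13 in the highest class, 1 of 31 in the middle and 1 of 8 in the lowest. Of the 10 Pcdha promoters without a peak, 7 fell in the class of highest ratio, among them Pcdha8 at 0.702 and Pcdha12 at 0.663. The ratio allows for GC content, so a high ratio need not mean many CpG dinucleotides. Median GC content was 41.7% in the alternate Pcdha windows and 52.2% in the C-type windows, against 51.8% over all protein-coding genes. The classes were not matched for GC content. Pcdhgc5 was open in both replicates at a ratio of 0.255, the lowest of the C-type genes, and Pcdhgc3 had the highest of them at 0.835.

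**Figure D3:**
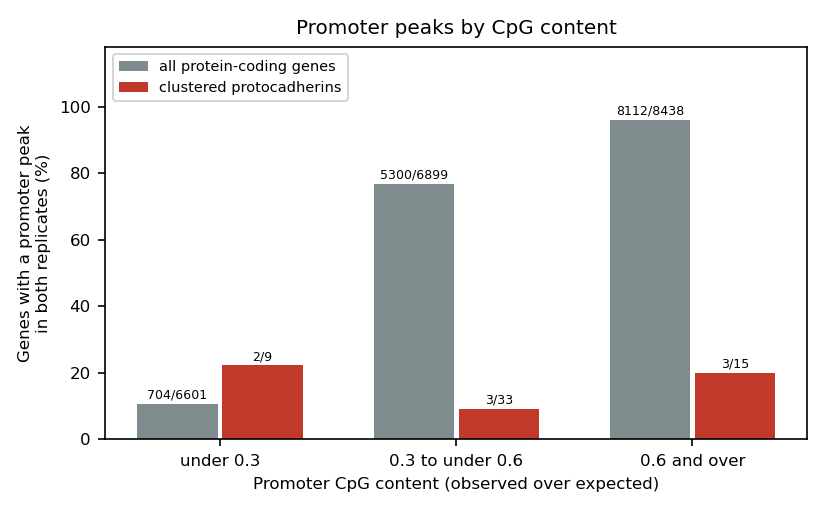
Percentage of promoters that held a peak in each of the 2 replicates (vertical) by class of promoter CpG content, with all protein-coding genes in grey and the 57 members in red, with the counts above the bars. At a ratio of 0.6 and over, 20% of members stand beside 96.1% of all genes. Under 0.3, 22.2% of members (2 of 9) stand beside 10.7%.

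Near-identical copies can cost a gene its reads, because a read that fits several places cannot be placed. The share of 32-base words in the promoter window that occur elsewhere in the genome was at most 0.711% in the 5 C-type genes. It had a median of 2.68% in the 15 alternate promoters with a peak in at least 1 replicate and of 7.51% in the 37 without, with ranges of 0 to 19.3% and 0 to 26.3%. The share was under 1% in 13 of the 37 windows without a peak, among them Pcdhb3, Pcdhb13, Pcdhb22 and Pcdhgb2 at 0. In the variable exons the medians were 21.5% for Pcdha, 16.8% for Pcdhb and 3.44% for Pcdhg, and 0% for the C-type genes. How reads with several places were treated is not given in the sources used here, and the part of repeated sequence in the missing peaks was not tested.

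The core of the CTCF motif, a consensus of 14 positions searched on both strands with at most 1 mismatch, was present in 10 of 57 member windows (17.5%), against 16.3% of all protein-coding genes. Of these, 9 were at alternate Pcdha isoforms (9 of 12), namely Pcdha1, Pcdha4, Pcdha5, Pcdha6, Pcdha7, Pcdha8, Pcdha9, Pcdha11 model 1 and Pcdha12. All 9 matches pointed the same way as the gene and lay inside the variable exon, 462 to 588 bp after the start with a median of 566 bp, and 6 were exact. A match in the gene's own direction was found in 8.96% of all protein-coding promoters. None of the 9 lay in a peak or under a footprint of either replicate. Of these genes only Pcdha4 and Pcdha5 had any peak in the window, in replicate 2, so this largely follows from the missing peaks. The share of matches in peaks over all protein-coding promoters was not counted. The other match, at Pcdhgb7, pointed against the gene, 842 bp after its start. No Pcdhb window had a match, and neither did a C-type window.

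**Figure D4:**
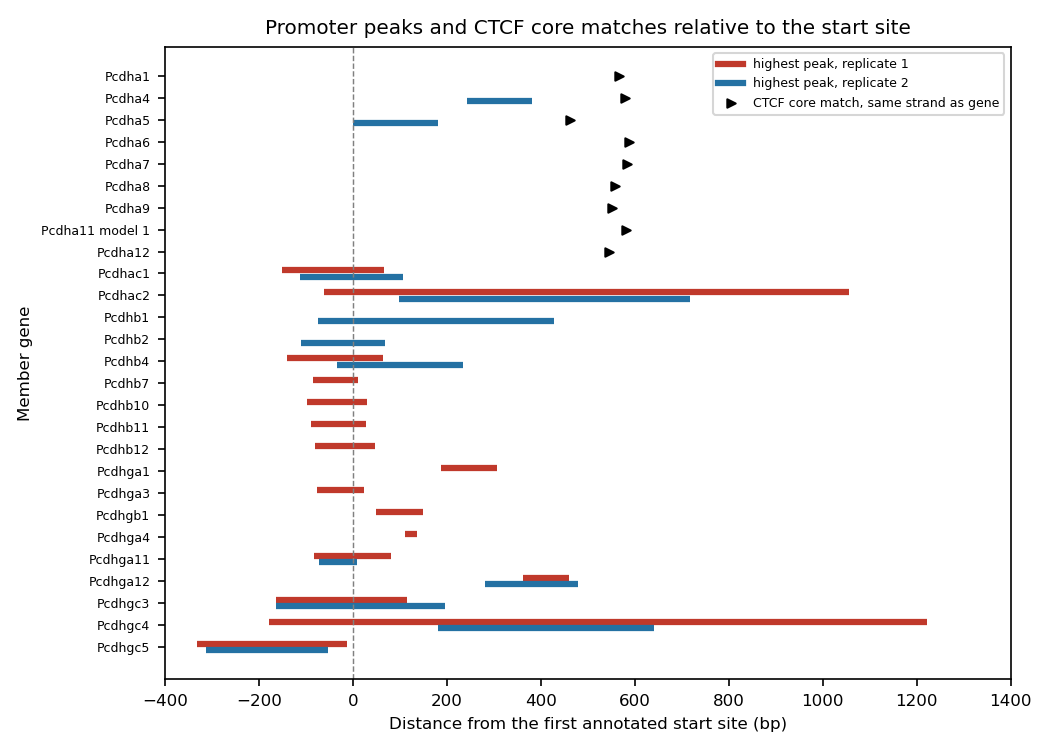
Highest promoter peak of each replicate (red bars for replicate 1, blue for replicate 2) and CTCF core matches in the direction of the gene (black triangles, at most 1 mismatch) by distance from the first annotated start site (bp, horizontal), for members with a peak or such a match. The triangles of the 9 alternate Pcdha isoforms line up at 462 to 588 bp. No bar covers one, and of these 9 only Pcdha4 and Pcdha5 have a bar.

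With 2 mismatches allowed, 30 of 57 member windows had a match (52.6%), against 69.0% of all genes. Of these matches, 8 lay in a peak of at least 1 replicate, and they are named here after their values were seen. At Pcdhac1 a match in the gene's direction, at -66 bp from the start (minus meaning before it) at chr18:37089941-37089954, lay in the peak and touched a footprint in both replicates. At Pcdhb10 a match at -30 bp had a peak and a footprint in replicate 1, and at Pcdhb2 one 16 bp after the start had both in replicate 2. The other 5 lay in peaks with no footprint on them. At Pcdhac2 a match in the gene's direction, 122 bp after the start, was in the peaks of both replicates and one against it, 30 bp after the start, in that of replicate 1. At Pcdhgc4 a match against the gene, at -366 bp from the start, was in a peak of both replicates, and at Pcdhb11 and Pcdhb12 matches at -40 and -76 bp were in those of replicate 1. A match is a description of letters and not a bound site.

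The constant exons were mostly without peaks, but no share over the exons of all genes was counted. Some are very short, with 59 bp in the first exon of either array and 89 bp in the second of Pcdhg. None of the 3 shared Pcdha exons had one in either replicate, and of the 3 Pcdhg exons the first and second had none. The third Pcdhg constant exon (chr18:37839903-37841873), which codes for the end of the shared inner part of the protein and holds the end of the transcript, had a peak of 1.07 in replicate 1 at chr18:37841633-37841682 and of 1.22 in replicate 2 at chr18:37841541-37841800. These peaks lie near the end of the exon. Replicate 2 had a second, lower peak of 0.644 at the start of the exon, at chr18:37839901-37840340. Over the whole exon replicate 2 had 9 footprints and replicate 1 had 0. In the shorter list no constant exon had a peak in both replicates.

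Away from promoters and constant exons, 24 sites of the span had peaks in both replicates that overlapped, 11 were found in replicate 1 only and 16 in replicate 2 only. Their density over the span, 1.83 per 100 kb, was that of the genome, 1.82 per 100 kb from 48311 such sites, but they were spread unevenly. The Pcdha variable region (225.971 kb), the Pcdhb array (259.542 kb) and the short Pcdhg constant region (16.853 kb) held 0. The Pcdha constant region held 2 (6.35 per 100 kb), the stretch between Pcdha and Pcdhb 3 (3.88), that between Pcdhb and Pcdhg 1 (0.728), and the Pcdhg variable region 4 (2.45). The flank beyond Pcdhg held 12 (6 per 100 kb) and the flank before Pcdha 2 (1 per 100 kb).

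Stretches with no site shared by the replicates, promoters included, were long. The longest, 336.45 kb from chr18:37307691-37644140, held the start sites of 18 Pcdhb genes from Pcdhb5 to Pcdhb22. The next, 287.82 kb from chr18:36802041-37089860, held the 12 alternate Pcdha starts and ended at the Pcdhac1 peak. Of 69685 such gaps in the genome, 1.01% and 1.32% were at least as long. These are shares of the number of gaps, and long gaps take up a larger share of the sequence. A gap of 99.7 kb held 16 alternate Pcdhg starts from Pcdhga1 to Pcdhgb7, and 7.26% of gaps were as long. The Pcdhb1 to Pcdhb3 starts lay in a gap of 88.9 kb.

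Enhancers of the Pcdha array are known from the literature in the intron between its constant exons and beyond the last of them, and several open sites lay in these places. No coordinates of those enhancers were matched. In the intron between Pcdha constant exons 2 and 3, a site at chr18:37172281-37172500 had 1.72 in replicate 1 and 1.74 in replicate 2, and a site at chr18:37178321-37178840 had 1.40 and 1.44. Both overlap noncoding genes on the other strand, Gm38097 and Gm10544, within 1000 bp of a start of those genes, and DNase-seq carries no strand. Both sites had footprints in each replicate.

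About 30 kb beyond the last Pcdha constant exon, 3 sites stood close together between the Pcdha and Pcdhb arrays. The first, at chr18:37217181-37217580 and 29.52 kb from the exon, had 1.93 in replicate 1 and 1.07 in replicate 2. The second, at chr18:37217701-37218140, had 1.94 and 0.652. The third, at chr18:37218181-37218460, was the sixth highest site of the span with 3.25 and 1.74. All 3 were lower in replicate 2, with ratios of replicate 2 to replicate 1 of 0.553, 0.335 and 0.535. Over all 48311 shared sites away from promoters the median ratio was 1.08, and the 5th and 95th percentiles were 0.693 and 1.54. Only 1.09%, 0.0393% and 0.882% of those sites had lower ratios. The first and the third held a CTCF core match pointing against the Pcdha genes, with a footprint on it in both replicates.

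**Figure D5:**
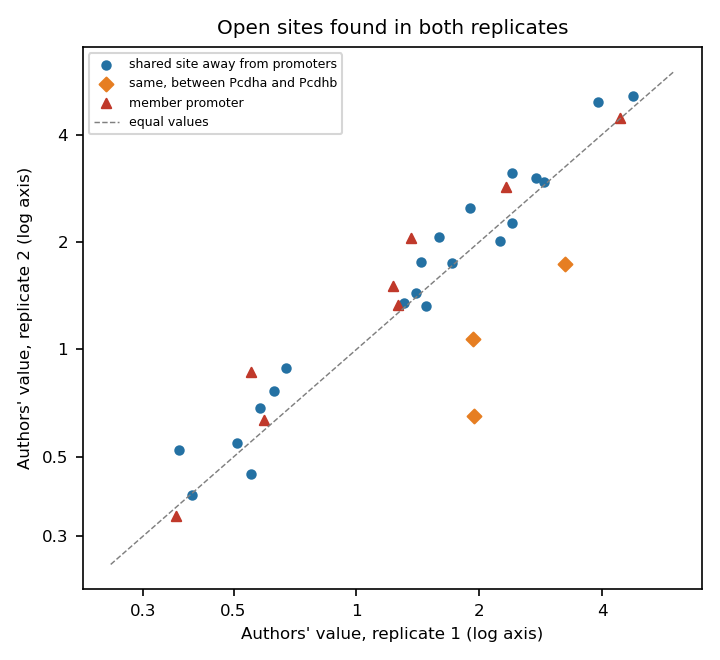
Authors' value in replicate 1 (horizontal, log axis) against replicate 2 (vertical, log axis) for the 24 shared sites away from promoters (circles, with diamonds for the 3 between Pcdha and Pcdhb) and the 8 member promoters with both peaks (triangles); the dashed line marks equal values. The diamonds lie below the line, with replicate 2 at 0.335 to 0.553 of replicate 1.

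Among the shared sites away from promoters, the highest lay beyond the Pcdhg array, inside introns of Diaph1, which codes for a regulator of the actin skeleton and is transcribed towards Pcdhg. The highest, at chr18:37852141-37852400 and 10268 bp after the last Pcdhg constant exon, had 4.77 in replicate 1 and 5.12 in replicate 2. The second, at chr18:37883561-37883740, had 3.90 and 4.94. Each held a CTCF core match pointing against the Pcdhg genes, with a footprint on it in both replicates, and their means were at or above 99.5% and 99.3% of shared sites away from promoters. Pcdhgc3, the highest member promoter, lay below both sites in replicate 2 and between them in replicate 1.

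The third site, at chr18:37880101-37880480, had 2.88 and 2.95, and the ninth, at chr18:37877181-37877500, had 2.26 and 2.01, both also in Diaph1 introns. The seventh, at chr18:37842041-37842280, began 168 bp after the end of the last Pcdhg constant exon and had 2.40 and 2.26. The eighth and the tenth lay farther downstream outside any protein-coding gene, at chr18:38024941-38025320 with 1.90 and 2.49 and at chr18:38013841-38014460 with 1.60 and 2.06. Before the Pcdha array, the fourth was at chr18:36801621-36802040, over the vault RNA gene Vaultrc5, with 2.75 and 3.02, and the fifth at chr18:36739881-36740040, within Tmco6, with 2.40 and 3.11. Apart from the sixth site, the ratios of replicate 2 to replicate 1 of these 10 sites lay between 0.893 and 1.31.

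Of the 24 shared sites, 6 held a CTCF core match (25.0%), against 19% of all shared sites away from promoters. The sites of the span were also wider, with a median of 300 bp against 260 bp. In 5 of the 6 the match pointed against the members and in 1 with them, and in 5 of the 6 a footprint lay on it in both replicates. Direction and footprints were not counted over the matches of all shared sites. The single match in the direction of the members was at the eighth site. The 5 thus face the other way from the 9 matches in the Pcdha variable exons. Among the 5, the match at chr18:37887022-37887238 had no footprint on it in either replicate.

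The Pcdhg variable region held 4 shared sites. The highest, at chr18:37824213-37824400 beyond Pcdhgc5, had 1.31 in replicate 1 and 1.35 in replicate 2 and lay within 1000 bp of a start of the noncoding gene Gm38182. A site at chr18:37761582-37761798 had 0.629 and 0.766 and lay at the start of Pcdhgb8, a gene of the array that the annotation calls a polymorphic pseudogene and that is no member. A site in the variable exon of Pcdhgc3, at chr18:37808041-37808479, had 0.580 and 0.685, and a site between members at chr18:37800925-37801260 had 0.552 and 0.448. Some places of the arrays held sites of 1 replicate only. Variable exons held 8 sites of replicate 2 only and 0 of replicate 1 only, and the Pcdhg intron between constant exons 2 and 3 held 4 of replicate 2 only. The Pcdhg intron between constant exons 1 and 2 held 2 of replicate 1 only.

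Protocadherins outside the arrays, the nonclustered members of the family, gave other counts. A peak at the promoter was found in both replicates for 11 of 12 such genes, with values from 0.728 to 4.99 in replicate 1 and from 0.921 to 6.37 in replicate 2. Pcdh17 was highest at 4.99 and 6.37, followed by Pcdh10 at 4.51 and 5.62, and Pcdh12, known from endothelium, had none in either replicate. The median ratio of observed to expected CpG of their promoters was 0.694, above the 0.492 of the clustered members. Over all protein-coding genes 64.3% had a peak in both replicates, and 96.1% of those at a ratio of 0.6 and over did.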

How the data were processed

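The authors deposited, for each replicate, a longer and a shorter peak list, footprints and stretches of cut rate, made on mm10 from 1 library each per the file headers. The aligner, peak caller and read length were not given in the sources used here. The signal value per peak was deposited by the authors in column 7 without a stated unit. The p-value columns, deposited by the authors, contain false discovery rates, with cut rate stretches listed under 0.05 and footprints at 0.01. Read counts were not used here, so depth is unknown.

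Members, lists and alternatives were chosen with earlier results of these data known. Genes of chromosomes 1 to 19, X and Y came from GENCODE M21 on GRCm38.p6. The longer list was the main one. Features counted at 1 bp of overlap with a window. A constant exon was an exon whose 5′ end is shared by at least 5 members. Sites away from promoters were merged overlapping peaks outside every protein-coding promoter window and constant exon. CpG content was the highest over a gene's start windows. With 1 group, no test was run, and counts stand beside those of all protein-coding genes. Every member with a peak in a replicate was named with values, those without peaks by name, then the 10 highest shared sites by mean, the 5 highest neighbours, and the 2 highest genes and those lacking peaks of the other lists. Python 3.11.15, numpy 2.4.6, pandas 2.3.3 and scipy 1.17.1 were used. Only the overlap and motif search functions were tested on simulated data. Alternatives changed the window, peak list, overlap, mismatches and replicates.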

Additional observations from a re-analysis of the deposited data

How the results depend on the processing

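The count of C-type promoters with a peak in both replicates was 5 under every alternative run, and the nonclustered protocadherins and regulators also kept their counts. With the shorter list the counts were 5 for all members, 0 for Pcdhb, 3 for Pcdhg, 0 for constant exons and 15 for distal sites. With the stronger part of each list (values at or above its median) they were 5 for all members, 0 for Pcdhb and 3 for Pcdhg. Without replicate 2 the count for all members was 16, and without replicate 1 it was 12. With either replicate alone the counts ranged from 12 to 16 for all members, 2 to 4 for Pcdha, 3 to 5 for Pcdhb, 5 to 9 for Pcdhg, 10 to 14 for promoters with a footprint and 36 to 40 for distal sites. The CTCF core was found in 6 windows with 0 mismatches, 30 with 2 mismatches and 2 in windows of 500 bp, which leave out the matches in the Pcdha exons beyond 500 bp. Exact matches were at 10.5% of members against 2.13% of all genes, those with 2 mismatches at 52.6% against 69.0%, and those of 500 bp windows at 3.51% against 10.5%. Windows of 500 or 2500 bp and the most upstream start alone changed no count of members with peaks. The cause of these moves was otherwise not tested. No paired analysis was possible because there was only 1 group. The unknown depth limits what a missing peak means.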

Other observations

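Other genes of the span lie before, between and beyond the arrays, and the models Gm42416, Gm37013 and Gm37388 run through them. Of these 18 protein-coding genes, 13 had a peak at the promoter in both replicates, 2 in replicate 2 only and 3 in neither. Over all protein-coding genes 64.3% had one in both. The peak at Gm42416, 0.342 in replicate 2, is the Pcdha4 peak given above. Tmco6, before the Pcdha array, was highest with 5.12 in replicate 1 and 6.60 in replicate 2. Diaph1, after Pcdhg, had 4.38 and 4.68, and Zmat2, which codes for a zinc finger protein, had 3.54 and 4.96. Ndufa2, a subunit of respiratory complex I, and Ik, a splicing factor gene read from the other strand, share a peak of 3.64 and 4.22. The 3 without a peak were the mitochondrial carrier gene Slc25a2 and the read-through models Gm37013 and Gm37388, which start among the alternate Pcdha isoforms.

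A list of regulators held genes for CTCF, cohesin, its loaders and release factors, enzymes and readers of DNA methylation, and the other chromatin and zinc finger factors Zfp143, Wiz, Rest, Setdb1 and Smchd1. They held a peak at the promoter in both replicates in 23 of 23 cases. Their values ran from 1.01 to 9.76 in replicate 1 and from 1.24 to 12.9 in replicate 2. Zfp143, a zinc finger factor found at promoters with CTCF sites, was highest with 9.76 and 12.9, followed by the cohesin subunit gene Stag1 with 8.46 and 10.9. The share over all protein-coding genes was 64.3%, and 96.1% among those with a CpG ratio of 0.6 and over. The median ratio of the regulators was 0.816.

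Of 31 noncoding genes and pseudogenes in the span, 9 had a peak within 1000 bp of a start in both replicates. No share over all such genes of the genome was counted. Among them, named after their values were seen, BC037039 is read from the other strand of the Pcdhgc3 variable exon, with 1.32 and 1.99, and Gm38182 starts beyond Pcdhgc5, with 1.31 and 1.35. BC037039 and Pcdhgc3 are on opposite strands, which DNase-seq does not tell apart, and Gm38182 is on the strand of the members.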
